A study of Homo sapiens with 18 samples.

Results

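CDK7, CDK8, CDK9, CDK12, CDK13, CCNT1, CCNK, HEXIM1 and LARP7 encode kinases, cyclins and inhibitors that control how RNA polymerase II moves from initiation into productive elongation. These 9 genes were taken by name, with earlier results of these data known. All 9 were among the 16786 genes tested across the 18 libraries. The libraries hold polyA RNA of U2OS, a line grown from a human osteosarcoma, and form 6 groups of 3 biological replicates by their labels. Cells with an integrated mCherry-tagged EWS-FLI1 construct were treated with 7.5 µM LY2835219 for 6 h or for 24 h, or left untreated. EWS-FLI1, the oncogene that drives Ewing sarcoma, joins part of EWSR1 to the DNA-binding part of FLI1, and LY2835219 (abemaciclib) inhibits CDK4 and CDK6, kinases of the cell cycle. At micromolar dose LY2835219 can also reach CDK9, and whether it did so in these cells was not tested. Further untreated groups carried mCherry-tagged EWS-FLI1mut, mCherry-tagged EWS(YS37)-FLI1 or mCherry alone. Every group thus carried an mCherry construct. What was changed in EWS-FLI1mut, whether each line is clonal and whether untreated cells received vehicle are not given in the labels. The treatment protocol in the labels gives 0, 3 and 6 h, whereas the titles and sample characteristics give 6 h and 24 h, and the groups are named here by the titles.

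CDK9 binds cyclin T1, the product of CCNT1, to form P-TEFb, the kinase that releases RNA polymerase II from its pause near the promoter. In resting P-TEFb the kinase is held inactive by HEXIM1 on the 7SK small nuclear RNA, and LARP7 binds and stabilises 7SK. CDK12 and CDK13 each pair with cyclin K, the product of CCNK, and phosphorylate the polymerase tail during elongation, CDK12 being known for its role at long DNA repair genes. CDK7 is the kinase of the general factor TFIIH, which acts at initiation and also activates other kinases of its family, and CDK8 is the kinase of the Mediator complex. The measurements here are of polyA RNA, not of protein or kinase activity. In bulk RNA, fewer cells with a transcript and less of it per cell cannot be told apart.

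Library totals ran from 16261034 to 20270637 estimated counts, and the treated libraries lay within that range. FLI1, whose 3′ part is in the fusion constructs, averaged 406 CPM after 6 h of treatment, 236 CPM after 24 h, 247 CPM without treatment, 642 CPM with EWS-FLI1mut and 1019 CPM with EWS(YS37)-FLI1, against 0.548 CPM with mCherry alone. CPM is a count scaled to its library's total with TMM factors, which set libraries to a common level. The construct itself was thus higher at 6 h, and its part in the results at 6 h was not tested. Mitochondrial genes held 6.03 to 6.31% of counts in the 6 h libraries and 5.87 to 6.59% in the 24 h libraries, against 4.55 to 5.10% in those of untreated EWS-FLI1 cells, and their part was not tested either. Of the U2OS lineage markers, COL1A1, SPARC and RUNX2 were present in every group, while IBSP, SP7 and BGLAP averaged under 1 CPM in every group and COL1A2 averaged 0.393 to 1.27 CPM. IBSP was at 0 in all libraries with EWS-FLI1 or EWS-FLI1mut, treated or not. The 8 bone markers summed to 5309.6 to 6362 CPM at 6 h and 4372 to 5467 CPM at 24 h, against 4868 to 4997 CPM in untreated EWS-FLI1 cells, and nearly all of each sum was COL1A1 and SPARC. RUNX2, a transcription factor of the bone lineage, averaged 46.4 CPM at 6 h and 83.8 CPM at 24 h, against 70.7 CPM in untreated EWS-FLI1 cells. ALPL, also on the bone list, averaged 12.8 CPM at 6 h and 8.76 CPM at 24 h, against 5.21 CPM in untreated EWS-FLI1 cells. The 4 epithelial markers, mainly the keratins KRT8 and KRT18, summed to 925 to 970.4 CPM at 6 h and 414 to 452 CPM at 24 h, against 787 to 810.4 CPM in untreated EWS-FLI1 cells. The 3 blood cell markers summed to at most 2.92 CPM in any library. The part of these marker shifts in the results was not tested.

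After 6 h of LY2835219 the P-TEFb kinase and cyclin transcripts were more than 2-fold higher in TMM-scaled counts, and HEXIM1, the inhibitor, was more than 6-fold lower. For CCNT1 the size depended on the setting, with a log2 fold change as low as 0.78, which is under 2-fold. At 24 h HEXIM1 was still more than 3-fold lower than in untreated EWS-FLI1 cells, while CDK9 and CCNT1 were near the untreated level. At 6 h 8 of the 9 genes passed the test against untreated EWS-FLI1 cells, 6 higher and 2 lower, where 64.9% of all genes tested passed, 31.6% higher and 33.3% lower. At 24 h 3 of the 9 passed, 1 higher and 2 lower, where 48% of all genes passed, 23.3% higher and 24.6% lower. Between 24 h and 6 h 8 of the 9 passed, 2 higher and 6 lower at 24 h, where 62.9% of all genes passed, 32.6% higher and 30.3% lower. The test was edgeR's quasi-likelihood test with Benjamini-Hochberg adjustment over all genes tested, a gene passing at an adjusted p under 0.05. These comparisons share the untreated or the 6 h libraries, so their counts are not independent of each other. The median log2 fold change of the 9 genes at 6 h was 0.35, against -0.02 over all genes. CDK12, CDK13 and LARP7, 3 of the 6 that were higher, did not pass with no scaling factors, where 5 of the 9 did. The changes at 6 h are relative to the TMM scaling, since with no scaling factors the median over all genes was -0.27.

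**Figure D1:**
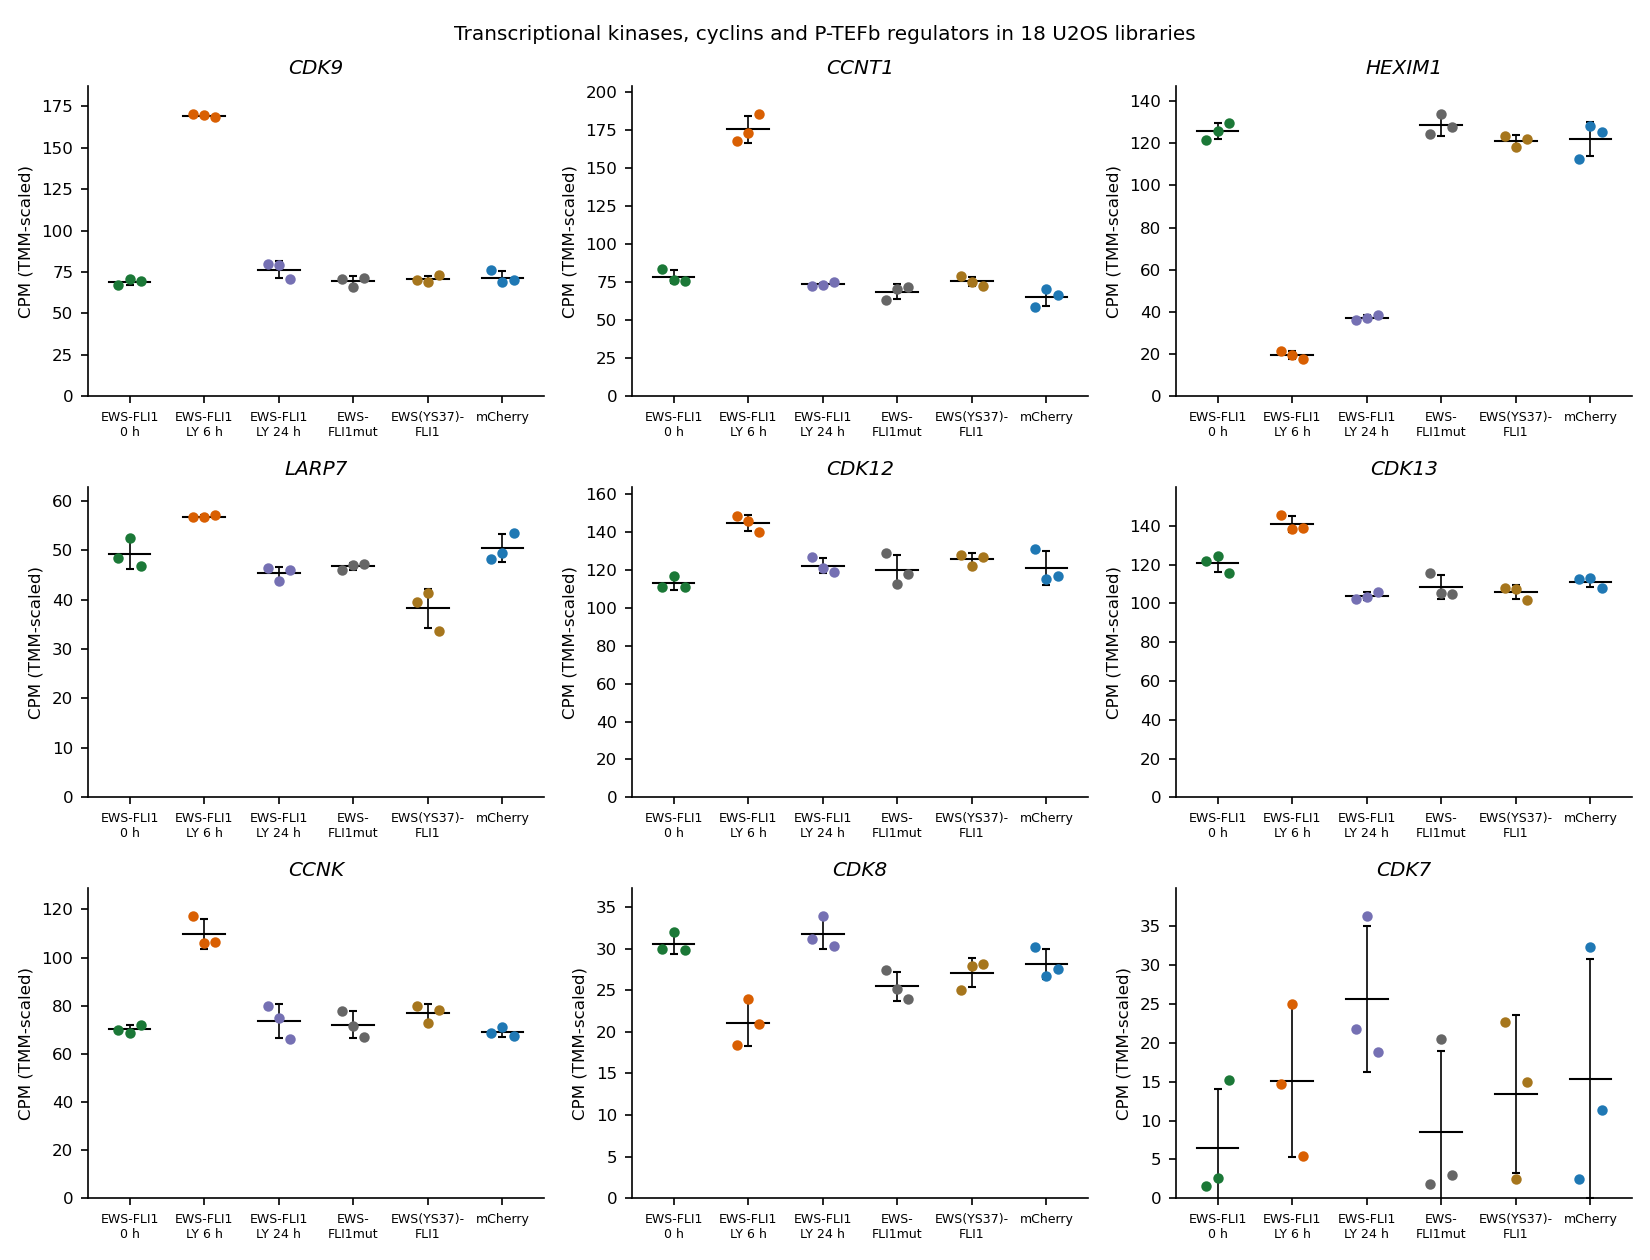
TMM-scaled CPM (y axis, linear) of each of the 9 genes in the 6 groups (x axis), with 1 point per library, a black line at the mean of 3 libraries and an error bar of 1 SD, cut off at 0 where it runs below. The 6 h libraries stand above all others for CDK9 and CCNT1, HEXIM1 lies under 40 CPM in all 6 treated libraries and above 110 CPM in all untreated ones, and the CDK7 points of a group are far apart.

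CDK9 (ENSG00000136807, chr9:127785679-127790787, plus strand, GRCh38) had 170.1, 169 and 168 CPM in cells treated for 6 h, against 67.1, 70.7 and 69.3 CPM in untreated EWS-FLI1 cells. The lowest 6 h library held more than 2 times the CDK9 level of the highest untreated library. The log2 fold change was 1.29 ± 0.06 (SE, n = 3 each), a 2.45-fold rise with an adjusted p of 6.84e-15 by edgeR's quasi-likelihood test, and 17.3% of all genes had a larger absolute change. At 24 h CDK9 had 79.7, 79.0 and 70.6 CPM, overlapping the untreated libraries. The log2 fold change of CDK9 at 24 h, 0.15 ± 0.06, passed narrowly with an edgeR adjusted p of 0.0476, and it passed in 5 of 17 other settings tried. It was lost on leaving out any single untreated library or the 24 h library numbered 1 or 2. CDK9 at 24 h was 1.15 ± 0.06 lower on the log2 scale than at 6 h. Of 56 transcripts of the 9 genes that could be tested, 12 passed at 6 h, where 20.7% of all 70021 transcripts passed. The main coding transcript CDK9-201 averaged 128 CPM at 6 h, against 59.9 CPM in untreated cells, a log2 fold change of 1.09 ± 0.07. CDK9-203, annotated as non-coding, averaged 27.8 CPM at 6 h, against 8.77 CPM in untreated cells, a log2 fold change of 1.66 ± 0.20.

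CCNT1 (ENSG00000129315, chr12:48688458-48716998, minus strand), which encodes the cyclin of P-TEFb, had 168, 173 and 186 CPM at 6 h, against 83.8, 76.6 and 75.7 CPM in untreated EWS-FLI1 cells. Its libraries at 6 h all lay above those of the other 5 groups. The rise was 1.16 ± 0.07 on the log2 scale, 2.23-fold, with an edgeR adjusted p of 6.21e-13. At 24 h CCNT1 had 72.8, 73.2 and 75.0 CPM, each just under the untreated EWS-FLI1 libraries, and the log2 difference of -0.10 ± 0.07 did not pass (edgeR adjusted p = 0.27). From the CCNT1 levels at 6 h, those at 24 h were 1.25 ± 0.07 lower on the log2 scale.

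HEXIM1 (ENSG00000186834, chr17:45148502-45152101, plus strand), an unspliced gene with 1 exon and 1 annotated transcript, had 21.4, 19.7 and 17.8 CPM at 6 h, against 122, 126 and 129 CPM in untreated EWS-FLI1 cells. The log2 fold change was -2.68 ± 0.07, with an edgeR adjusted p of 4.9e-19, and 3.14% of all genes had a larger absolute change at 6 h. At 24 h HEXIM1 had 36.0, 37.1 and 38.5 CPM, above every 6 h library and below every untreated one. It was lower than in untreated cells by 1.75 ± 0.07 on the log2 scale (edgeR adjusted p = 7.71e-16) and higher than at 6 h by 0.92 ± 0.07 (edgeR adjusted p = 1.53e-10). In the test over all 6 groups at once, which 82.4% of genes passed, 0.179% of genes had a larger F statistic than HEXIM1, 2.19% a larger one than CDK9 and 3.28% a larger one than CCNT1. Of the 31-base words in the HEXIM1 transcript, 13.7% also occur in AC138150.1, an antisense transcript that has no value in the tables, so reads from the pair cannot be told apart there.

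LARP7 (ENSG00000174720, chr4:112636964-112657592, plus strand) had 56.7, 56.6 and 57.1 CPM at 6 h and 46.3, 43.9 and 45.9 CPM at 24 h, against 48.3, 52.5 and 46.7 CPM in untreated EWS-FLI1 cells. The 6 h libraries lay above all 15 others. Its log2 fold change at 6 h was 0.21 ± 0.07 with an edgeR adjusted p of 0.0143, and it turned to -0.04 with no scaling factors, so no direction is given for it. Leaving out the untreated EWS-FLI1 library numbered 3 also ended the call, with a log2 fold change of 0.15. At 24 h the difference of -0.12 ± 0.07 did not pass. Of the 31-base words of its main coding transcript, 10.3% also occur in other annotated genes.

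Read per transcript, HEXIM1 stood to CDK9 at a ratio of 0.0409 ± 0.0056 at 6 h and 0.192 ± 0.022 at 24 h, against 0.704 ± 0.056 for the untreated EWS-FLI1 libraries (TPM of HEXIM1 over TPM of CDK9 within a library, SD, n = 3 each). TPM, kallisto's transcript abundance scaled to a common sum, is corrected for length and so allows genes to be set against each other. The ratio was 0.677 ± 0.033 with EWS-FLI1mut, 0.593 ± 0.027 with EWS(YS37)-FLI1 and 0.631 ± 0.082 with mCherry alone. The highest treated value of the HEXIM1 ratio, 0.217, was below the lowest untreated value, 0.557. The CCNT1 ratio to CDK9 was 0.30 ± 0.039 at 6 h and 0.290 ± 0.057 at 24 h, against 0.355 ± 0.048 for the untreated EWS-FLI1 libraries, and these libraries overlapped. The LARP7 ratio to CDK9 was 0.320 ± 0.0066 at 6 h and 0.603 ± 0.098 at 24 h, against 0.686 ± 0.036 for the untreated EWS-FLI1 libraries. The LARP7 ratio at 6 h was below all the other libraries. In all 3 ratios the CDK9 TPM includes non-coding transcripts. Coding ones made up 50.9 ± 4.7% of CDK9 TPM at 6 h and 60.2 ± 3.8% at 24 h (SD). In the untreated EWS-FLI1 libraries they made up 60.0 ± 2.4%.

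**Figure D2:**
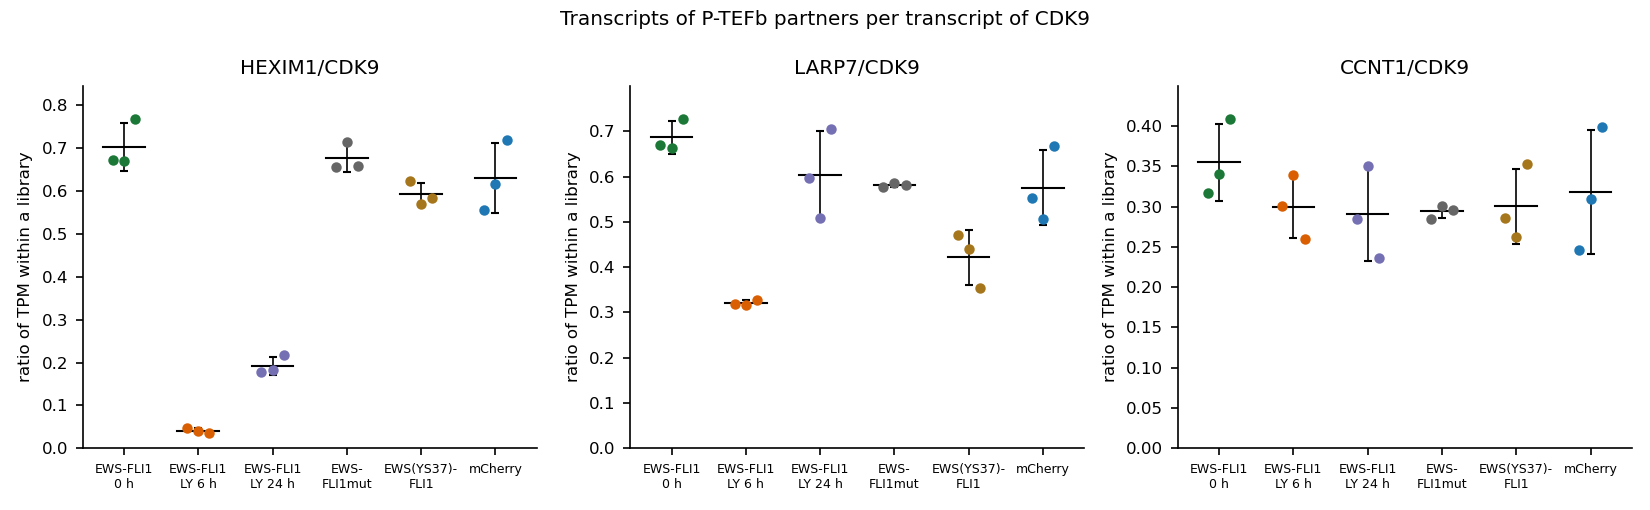
Ratio of the TPM of HEXIM1, LARP7 and CCNT1 to the TPM of CDK9 within each library (y axis, linear, no unit) in the 6 groups (x axis), with points for libraries, a line at the mean and an error bar of 1 SD (n = 3). The HEXIM1 ratio lies under 0.22 in the 6 treated libraries and above 0.55 in the 12 untreated ones, and the CCNT1 ratio of the untreated EWS-FLI1 libraries overlaps that of both treated groups and of mCherry alone, while lying above that of every EWS-FLI1mut library.

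The windows at the starts of the 3 genes with the largest called changes are printed below for the letters that FLI1 and other ETS factors read, GGAA (TTCC on the other strand), set in capitals. Each runs from 250 bases before to 50 bases after the RefSeq start on GRCh38.p14, 5′ to 3′ on the gene's strand. HEXIM1 is chr17:45148225-45148524 on the plus strand, CDK9 is chr9:127785784-127786083 on the plus strand, and CCNT1 is chr12:48716658-48716957 on the minus strand.
HEXIM1: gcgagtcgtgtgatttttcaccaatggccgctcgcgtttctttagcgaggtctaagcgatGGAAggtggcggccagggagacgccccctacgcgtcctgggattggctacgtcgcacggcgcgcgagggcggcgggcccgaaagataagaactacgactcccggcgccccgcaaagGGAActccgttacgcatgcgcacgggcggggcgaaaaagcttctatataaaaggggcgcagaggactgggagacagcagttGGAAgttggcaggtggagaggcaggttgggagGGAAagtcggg
CDK9: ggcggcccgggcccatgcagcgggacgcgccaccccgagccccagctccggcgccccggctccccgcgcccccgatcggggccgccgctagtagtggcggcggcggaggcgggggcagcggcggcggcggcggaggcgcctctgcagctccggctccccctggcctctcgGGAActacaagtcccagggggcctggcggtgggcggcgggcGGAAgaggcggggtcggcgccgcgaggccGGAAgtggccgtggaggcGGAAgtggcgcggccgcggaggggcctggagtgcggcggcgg
CCNT1: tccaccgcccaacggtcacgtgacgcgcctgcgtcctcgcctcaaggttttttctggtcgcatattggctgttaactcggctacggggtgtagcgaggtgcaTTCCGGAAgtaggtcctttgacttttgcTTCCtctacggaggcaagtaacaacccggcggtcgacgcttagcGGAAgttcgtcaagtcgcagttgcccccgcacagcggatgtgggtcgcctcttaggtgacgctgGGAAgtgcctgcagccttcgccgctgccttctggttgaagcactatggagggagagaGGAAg

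Counted on both strands with overlaps allowed, GGAA occurs 4 times in the HEXIM1 window, 4 times in the CDK9 window and 6 times in the CCNT1 window. These letters are common, since 95.5% of the 35116 promoters in the same table hold at least 1 match and the median is 3. The repeat GGAAGGAA, the kind of element that EWS-FLI1 is known to bind, is held by 3.67% of all promoters and by none of the 3 windows. HEXIM1 has 1 match to TATAAA, which 11.5% of promoters hold, and 2 matches to CCAAT, which 34.6% hold. CCNT1 has 1 match to CCAAT. The CDK9 window is 82% G and C, against a median of 58.7% over all promoters. A match is a description of the letters only.

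CDK12 and CDK13, the kinases that pair with cyclin K, changed little, and the direction of their change at 6 h differed between settings, turning on TPM for both and with no scaling factors for CDK13. CDK12 (ENSG00000167258, chr17:39461511-39564907, plus strand) had 148, 146 and 139.9 CPM at 6 h and 127, 121 and 119 CPM at 24 h, against 111, 117 and 111 CPM in untreated EWS-FLI1 cells. All 6 treated libraries lay above the 3 untreated ones. The log2 fold change at 6 h was 0.35 ± 0.06 (edgeR adjusted p = 1.54e-05), but it was 0.11 and did not pass with no scaling factors, and it was -0.23 with limma on log2(TPM + 1). At 24 h it was 0.11 ± 0.06 and did not pass. On the TPM scale CDK12 averaged 31.2 ± 2.5 at 6 h and 40.7 ± 2.2 at 24 h, against 36.7 ± 1.3 for the untreated EWS-FLI1 libraries, so the 6 h group is the lowest per length and the highest by count.

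The 2 scales differ together with the transcripts of CDK12 that were counted. Its coding transcripts made up 85.2 ± 5.3% of CDK12 TPM at 6 h and 65.5 ± 3.2% at 24 h, against 72.3 ± 0.66% for the untreated EWS-FLI1 libraries. CDK12-210, a short retained-intron transcript, averaged 0.410 CPM at 6 h, against 3.00 CPM in untreated cells, a log2 fold change of -2.85 ± 0.44 with an edgeR adjusted p of 0.000225 over 70021 transcripts. CDK12-205, annotated as a target of nonsense-mediated decay, was lower by 1.27 ± 0.42 on the log2 scale (edgeR adjusted p = 0.0425). These transcripts are scarce, and kallisto's division of reads among transcripts adds error that the test does not carry.

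CDK13 (ENSG00000065883, chr7:39949646-40099580, plus strand) had 145, 138 and 139 CPM at 6 h and 102, 103 and 106 CPM at 24 h, against 122, 124 and 116 CPM in untreated EWS-FLI1 cells. The untreated libraries lay between those of the 2 times. At 6 h the log2 fold change was 0.22 ± 0.05 (edgeR adjusted p = 0.000912), with a value of -0.02 when no scaling factors were used. At 24 h it was -0.22 ± 0.05 (edgeR adjusted p = 0.00174), and this call was lost with transcript length offsets and with limma on TPM. The main coding transcript, CDK13-202, averaged 61.0 CPM at 24 h, against 83.8 CPM in untreated cells, a log2 fold change of -0.46 ± 0.08 (edgeR adjusted p = 0.00125).

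CCNK (ENSG00000090061, chr14:99481169-99535044, plus strand), the cyclin K gene, had 117, 106 and 106 CPM at 6 h and 80.1, 74.8 and 66.0 CPM at 24 h, against 70.1, 68.6 and 71.9 CPM in untreated EWS-FLI1 cells. The 6 h libraries lay above all others. Its log2 fold change at 6 h was 0.65 ± 0.07 with an edgeR adjusted p of 2.67e-08, while the value at 24 h, 0.07 ± 0.07, did not pass. In TPM, the ratio of CCNK to CDK12 was 1.72 ± 0.029 at 6 h and 1.02 ± 0.084 at 24 h, against 1.16 ± 0.089 for the untreated EWS-FLI1 libraries. The CCNK values are uncertain, because 80.1% of the 31-base words of its main transcript CCNK-201 also occur in CCDC85C, a gene that overlaps it on the opposite strand, and the sources used here do not state whether strand was used. CCDC85C itself averaged 56.2 ± 7.6 CPM at 6 h, against 98.0 ± 5.5 CPM in untreated cells, a log2 fold change of -0.80 ± 0.10 (edgeR adjusted p = 1.23e-07). CCNK-204, of whose words 34.3% are shared, was higher at 6 h by 0.60 ± 0.15 on the log2 scale (edgeR adjusted p = 0.011).

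CDK8 (ENSG00000132964, chr13:26254104-26405238, plus strand) was lower at 6 h of treatment and did not pass at 24 h. It had 18.4, 23.9 and 21.0 CPM at 6 h and 31.2, 33.9 and 30.3 CPM at 24 h, against 29.9, 32.0 and 29.8 CPM in untreated EWS-FLI1 cells. The 3 libraries at 6 h were the lowest of all 18. The log2 fold change at 6 h was -0.54 ± 0.09 (edgeR adjusted p = 2.4e-05), and between 24 h and 6 h CDK8 was 0.59 ± 0.09 higher (edgeR adjusted p = 6.96e-06). Against untreated cells its difference at 24 h was 0.06 ± 0.09, with a 95% interval of -0.13 to 0.24. Its main coding transcript, CDK8-201, averaged 16.1 CPM at 6 h, against 27.3 CPM in untreated cells.

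**Figure D3:**
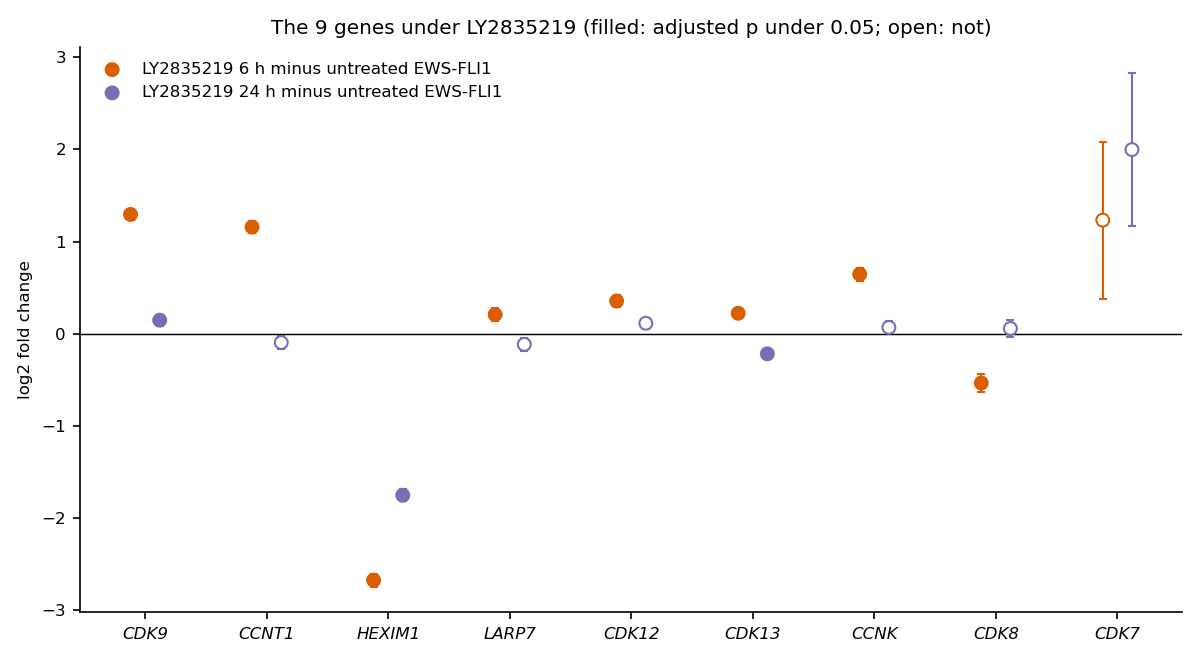
Log2 fold change against untreated EWS-FLI1 cells (y axis, log2 scale) for each of the 9 genes (x axis) after 6 h and after 24 h of LY2835219, with error bars of 1 SE from the fit of all 18 libraries and filled points where the adjusted p is under 0.05. HEXIM1 lies at -2.68 for 6 h and -1.75 for 24 h, CDK9 and CCNT1 lie above 1 at 6 h and near 0 at 24 h, and the CDK7 bars are the widest.

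CDK7 (ENSG00000134058, chr5:69234795-69277430, plus strand) could not be measured from its annotated transcripts. It had 14.7, 25.1 and 5.46 CPM at 6 h and 21.8, 36.3 and 18.9 CPM at 24 h, against 1.53, 2.62 and 15.2 CPM in untreated EWS-FLI1 cells. Libraries of the same group thus differed several-fold, and the log2 fold changes of 1.23 ± 0.85 at 6 h and 2.00 ± 0.83 at 24 h did not pass (edgeR adjusted p = 0.212 and 0.0523). Without the untreated EWS-FLI1 library numbered 3 both passed, at 2.84 and 3.6 on the log2 scale, and of all 17 other settings 6 gave a call at 6 h and 8 at 24 h. CDK7 counts ran from 30 to 660 per library. A transcript without a match in the annotation, ENST00000615305 of 1432 bases, ran from 0 to 702 counts, with a Pearson r of -0.827 against the CDK7 count over 18 libraries, the lowest of 1242 such transcripts searched. A further 3 unmatched transcripts had the same length and the same counts in every library as CDK7-213, CDK7-205 and CDK7-207.

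The sum of CDK7 and these 4 unmatched transcripts was steadier, at 733 to 863 counts at 6 h and 760 to 903 at 24 h, against 531 to 611 in untreated EWS-FLI1 cells. The sum was chosen after the counts were seen, and the files do not say which gene the 4 transcripts belong to. It came to 45.9, 46.3 and 53.5 CPM at 6 h and 40.3, 45.3 and 46.8 CPM at 24 h, against 31.2, 27.9 and 31.05 CPM in untreated EWS-FLI1 cells. On that sum the log2 fold change was 0.69 ± 0.09 at 6 h (edgeR adjusted p = 4.34e-07) and 0.56 ± 0.09 at 24 h (edgeR adjusted p = 1.97e-05). ENST00000615305 was picked for the lowest correlation with the CDK7 count, a choice that itself favours a steady sum and a small SE. These p-values therefore do not establish a change of CDK7. None of the comparisons among untreated groups passed on the sum.

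**Figure D4:**
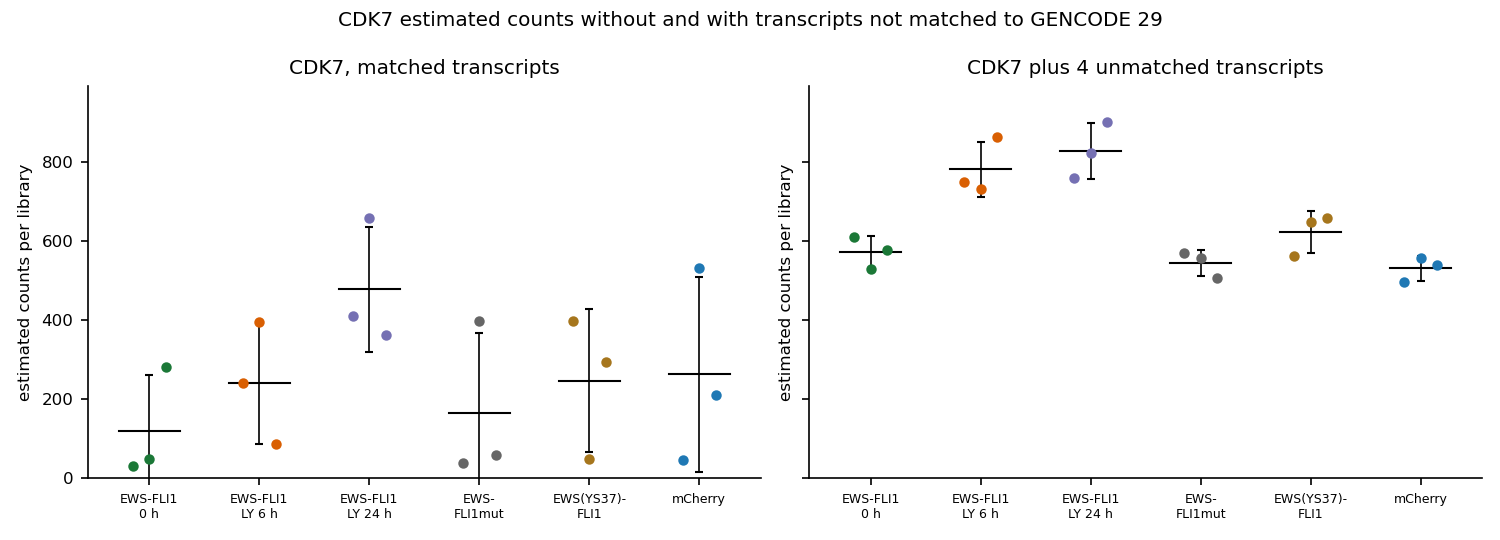
Estimated counts per library (y axis, linear) for the matched CDK7 transcripts alone and for CDK7 plus the 4 unmatched transcripts, in the 6 groups (x axis), with points for libraries, a line at the mean and an error bar of 1 SD cut off at 0 (n = 3). The matched counts spread from 30 to 660, and the sums lie between 497 and 903 with every treated library above every untreated one.

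Among untreated groups 0 to 2 of the 9 genes passed in each comparison. With 9 genes, such counts do not set them apart from the shares over all genes. With EWS-FLI1, 1 of the 9 genes was higher than with mCherry alone and none was lower, where 21.1% of all genes passed, 11.1% higher and 9.95% lower. With EWS-FLI1mut none of the 9 passed against mCherry alone, where 7.15% of all genes passed, 3.53% higher and 3.62% lower, and DESeq2 and an unadjusted p under 0.05 in edgeR also gave 0. With EWS(YS37)-FLI1, 1 was higher and 1 lower than with mCherry alone, where 21.7% of all genes passed, 11.5% higher and 10.2% lower. Between EWS-FLI1 and EWS-FLI1mut none of the 9 passed, where 16.3% of all genes passed, 8.78% higher and 7.51% lower with EWS-FLI1. In that comparison 3 of the 9 had an unadjusted p under 0.05 in edgeR, and 3 passed in DESeq2. Between EWS-FLI1 and EWS(YS37)-FLI1, 2 were higher with EWS-FLI1 and none lower, where 31.1% of all genes passed, 14.8% higher and 16.3% lower. CCNT1 had 83.8, 76.6 and 75.7 CPM with EWS-FLI1, against 58.8, 70.7 and 66.9 CPM with mCherry alone. That log2 fold change of 0.27 ± 0.07 had an edgeR adjusted p of 0.00799, and the call was lost without the EWS-FLI1 library numbered 1 (0.22) or the mCherry library numbered 1 (0.20). With EWS(YS37)-FLI1, CCNT1 had 78.8, 75.4 and 72.4 CPM, and its log2 fold change of 0.21 ± 0.07 against mCherry alone passed in 6 of 17 other settings and was -0.04 on TPM. It was lost without the mCherry library numbered 1 or 3, or the EWS(YS37)-FLI1 library numbered 1 or 2.

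LARP7 was lower with EWS(YS37)-FLI1 than with mCherry alone or with EWS-FLI1, and both calls were kept in all 17 other settings tried. It had 39.6, 41.4 and 33.7 CPM with EWS(YS37)-FLI1, against 48.1, 49.5 and 53.5 CPM with mCherry alone, a log2 fold change of -0.40 ± 0.07 (edgeR adjusted p = 0.000268). EWS-FLI1 was above EWS(YS37)-FLI1 by 0.36 ± 0.07 on the log2 scale for LARP7 (edgeR adjusted p = 0.000437). The EWS(YS37)-FLI1 libraries did not overlap those of the other 5 groups for this gene. No single transcript of LARP7 passed in either comparison. The main coding one, LARP7-202, averaged 27.6 CPM with EWS(YS37)-FLI1, against 32.1 CPM with mCherry alone and 36.2 CPM with EWS-FLI1. LARP7-201 varied more, at 2.46 CPM with EWS(YS37)-FLI1, 8.88 CPM with mCherry alone and 0.365 CPM with EWS-FLI1. For CDK13, EWS-FLI1 was above EWS(YS37)-FLI1 by 0.19 ± 0.05 (edgeR adjusted p = 0.00864), a call lost without the EWS(YS37)-FLI1 library numbered 3 (0.16). HEXIM1 and CDK9 passed in none of the 5 comparisons among untreated groups. For HEXIM1 the 95% interval of the log2 difference between EWS-FLI1 and mCherry alone was -0.08 to 0.17, and for CDK9 it was -0.18 to 0.07.

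Ordered by mean CPM over the 6 groups, each gene had few steps between neighbours that passed the test. CDK9 and CCNT1 were highest at 6 h, and the steps among their other 5 groups did not pass. For HEXIM1 the steps among the 4 untreated groups did not pass, and the steps down to the 24 h group and from there to the 6 h group did. CCNK, CDK12, CDK13 and LARP7 also had the 6 h group on top by count, with the step to the next group passing for each. For CDK12, CDK13 and LARP7 the difference between the 6 h group and untreated EWS-FLI1 cells turned its sign on TPM. CDK8 had 1 step that passed, between EWS-FLI1mut and the 6 h group (edgeR adjusted p = 0.0132). LARP7 had a further one, between the 24 h group and EWS(YS37)-FLI1 (edgeR adjusted p = 0.00659). Per length and over all 18 libraries, the mean TPM was 84.4 for CDK9, 45.1 for CCNK, 42.1 for LARP7, 39.1 for CDK12, 34.8 for HEXIM1, 32.8 for CDK13, 25.9 for CCNT1, 21.1 for CDK7 and 12.5 for CDK8. The CDK7 mean rests on its matched transcripts alone, from which the gene could not be measured, so its place in this order is not known.

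Over the 18 libraries, which share group means, the log2 CPM of CDK9 went with that of CCNT1 at a Pearson r of 0.952, with CCNK at 0.940 and with HEXIM1 at -0.854, as descriptions. The 3 protein-coding genes most like CDK9 were TFIP11 (Pearson r 0.992), CELF1 (0.990) and YTHDF2 (0.987). Those most like HEXIM1 were HIP1 (Pearson r 0.992), HEG1 (0.989) and PELI2 (0.989). Those most like CCNT1 were BIRC2, DUSP5 and SHB, from 0.985 to 0.987. For the other genes the most alike were AKAP8 for CCNK at 0.971, G3BP2 for CDK13 at 0.967, PSMD3 for CDK12 at 0.936, C5orf46 for LARP7 at 0.929, CHP1 for CDK8 at 0.905 and CUEDC2 for CDK7 at 0.782. The CDK7 correlation rests on the same matched transcripts and says little about the gene.

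Other genes of the same machinery moved in both directions at 6 h, and the counts of each list stand beside a share over all genes tested of 31.6% higher and 33.3% lower at 6 h. Of 6 further partners of 7SK and P-TEFb, 3 rose and 3 fell, with a median log2 fold change of -0.63, against -0.02 over all genes. MEPCE, the enzyme that caps 7SK, averaged 35.2 CPM at 6 h, against 128 CPM in untreated EWS-FLI1 cells, a log2 fold change of -1.86 ± 0.08. HEXIM2, the paralog of HEXIM1, was scarce and lower by 1.82 ± 0.21. CCNT2, the other cyclin of CDK9, rose by 1.19 ± 0.07 on the log2 scale to 163 CPM, against 71.4 CPM in untreated cells. BRD3, which encodes a bromodomain protein that reads acetylated histones, fell by 1.56 ± 0.07 on the log2 scale. At 24 h MEPCE was at 71.6 CPM and BRD3 at 48.3 CPM, both still lower than untreated, and CCNT2 was higher by 0.29 ± 0.07.

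In the super elongation complex, which holds P-TEFb with other elongation factors, 4 of 8 genes tested rose and 4 fell at 6 h, where 64.9% of all genes passed in either direction. EAF1, a binding partner of the ELL factors, rose by 1.53 ± 0.08 on the log2 scale, ELL2 by 1.01 ± 0.09 and the scaffold AFF4 by 1.00 ± 0.06, and the reader protein MLLT3 fell by 2.97 ± 0.20 to 0.991 CPM, against 7.81 CPM in untreated cells. Of 6 genes of the pausing factors DSIF and NELF, 5 rose and 1 fell, but with no scaling factors 2 rose and 1 fell. NELFCD rose by 0.77 ± 0.11 and NELFA fell by 0.41 ± 0.08. Of 10 genes of the PAF1 complex and related factors, 4 rose and 4 fell, SUPT6H rising by 0.94 ± 0.05 and RTF1 falling by 0.67 ± 0.07. Of 11 RNA polymerase II subunits, 6 rose and 1 fell, but with no scaling factors 2 rose and 4 fell. POLR2A, the largest subunit and the substrate of these kinases, averaged 24.6 CPM at 6 h and 38.7 CPM at 24 h, against 79.6 CPM in untreated EWS-FLI1 cells, log2 fold changes of -1.69 ± 0.15 and -1.04 ± 0.14.

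**Figure D5:**
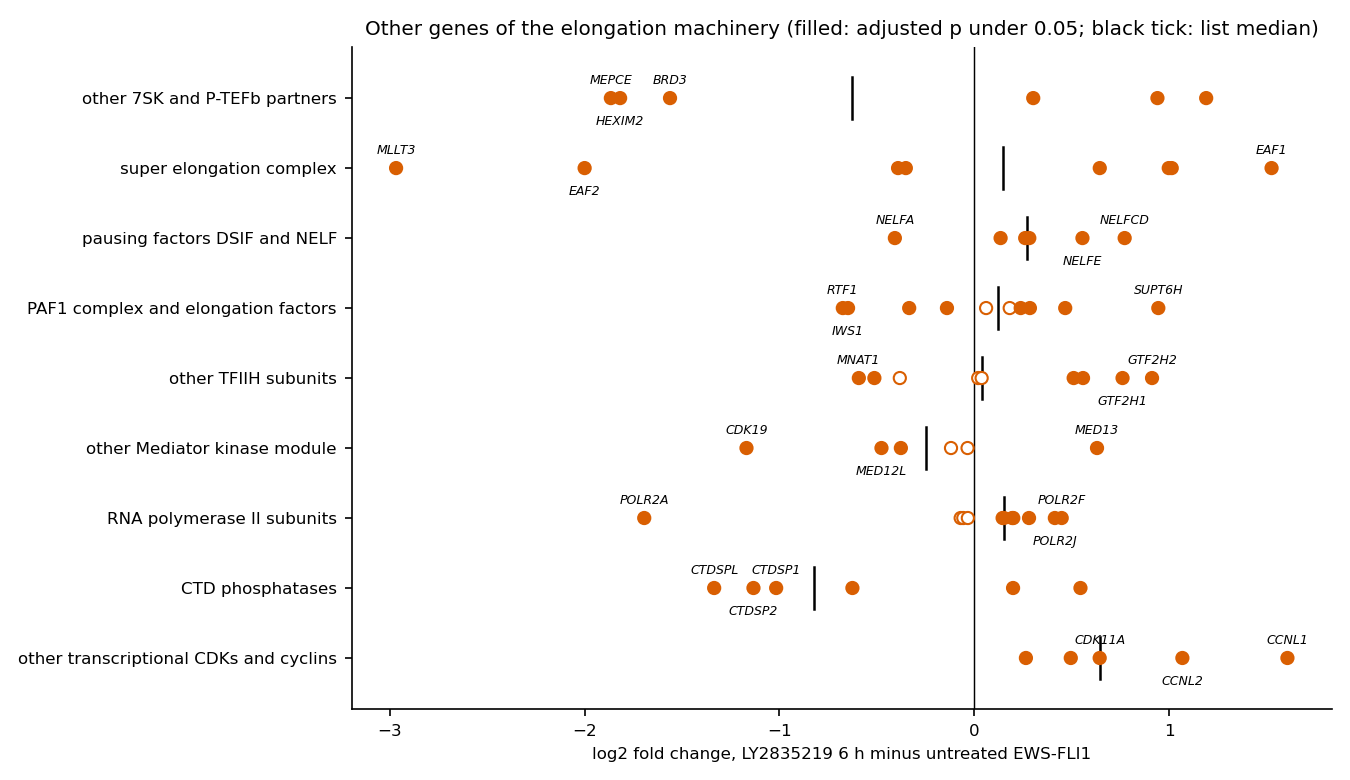
Log2 fold change at 6 h of LY2835219 against untreated EWS-FLI1 cells (x axis, log2 scale under TMM scaling) for 9 lists of partner genes (rows), with 1 point per gene, filled where the adjusted p is under 0.05, and a black tick at the median of each list. MLLT3 is the lowest point at -2.97, CCNL1 the highest at 1.61, and every list except the other transcriptional kinases and cyclins has points on both sides of 0.

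Of 9 further TFIIH subunits, the complex of CDK7, 4 rose and 2 fell at 6 h, with GTF2H1 rising by 0.76 ± 0.07 and MNAT1, which assembles the CDK7 kinase module, falling by 0.59 ± 0.10. Of 6 further genes of the Mediator kinase module, 1 rose and 3 fell, and CDK19, the paralog of CDK8, was lower by 1.17 ± 0.09 on the log2 scale. Of 6 phosphatases that act on the polymerase tail, 2 rose and 4 fell, among them CTDSPL by 1.33 ± 0.10 and CTDSP2 by 1.13 ± 0.07. All 5 further transcriptional kinases and cyclins rose, CCNL1 by 1.61 ± 0.09 and CCNL2 by 1.07 ± 0.07, and 4 of them did so with no scaling factors. CDK11A and CDK11B among them are near-identical copies, and their counts are uncertain. At 24 h 3 of these 5 were still higher than untreated and none was lower, where 23.3% of all genes were higher and 24.6% lower. With no scaling factors the counts at 6 h were 2 higher and 3 lower for the 7SK and P-TEFb partners, 2 and 4 for the PAF1 complex and related factors, 3 and 4 for TFIIH, 1 and 5 for the Mediator kinase module and 1 and 4 for the phosphatases, and no gene named here from these lists changed its sign.

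Of 12 short-lived transcripts known to be lost when CDK9 is inhibited, 9 rose and 2 fell at 6 h, where 31.6% of all genes rose and 33.3% fell. MCL1, a survival factor among them, averaged 897 CPM at 6 h, against 320.4 CPM in untreated EWS-FLI1 cells. At 24 h 3 of the 12 were higher and 5 lower than in untreated cells, where 23.3% of all genes were higher and 24.6% lower, and 11 were lower at 24 h than at 6 h, where 30.3% of all genes were lower. Without treatment 8 of the 12 were higher with EWS-FLI1 than with mCherry alone and none was lower, where 11.1% of all genes were higher. The other fusion lines shared this. Against mCherry alone 6 of the 12 were higher with EWS-FLI1mut, where 3.53% of all genes were. With EWS(YS37)-FLI1 7 were higher, where 11.5% of all genes were, and neither line had any lower. Of 12 tested DNA repair genes known to depend on CDK12, 11 fell and 1 rose at 6 h, against the same shares of all genes, with BRCA1 lower by 2.60 ± 0.09 on the log2 scale. At 24 h 8 of these 12 were lower and 2 higher than in untreated cells, where 24.6% of all genes were lower and 23.3% higher. The part of CDK9 or CDK12 activity in the changes of either list was not tested. Without treatment 8 of the 12 were already lower with EWS-FLI1 than with mCherry alone and none was higher, where 9.95% of all genes were lower. Against mCherry alone 5 of the 12 repair genes were lower with EWS(YS37)-FLI1, where 10.2% of all genes were. With EWS-FLI1mut 1 was lower, where 3.62% of all genes were, and neither line had any higher.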

How the data were processed

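PolyA RNA of 18 U2OS libraries was quantified by the submitters with kallisto 0.46 on hg38, per the submitters' processing notes. The transcript set, the index options and whether strand was used are not given in the sources used here. The labels name 2 library kits, and which of them made a given library is not stated. Per the file headers, the authors deposited 1 table per library, with an estimated count (kallisto's expected count, not normalized) and a TPM for each transcript. The effective length in each table, another unit deposited by the authors, entered only the length offsets. The 188753 transcripts were matched by Ensembl identifier to GENCODE 29 on GRCh38, which held 169797 of them, and 2.59 to 2.74% of counts lay on the rest. Counts were summed per gene and rounded.

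edgeR 4.0.16 in R 4.3.3 was run with TMM scaling, its filter on low counts and 1 quasi-likelihood fit of all 18 libraries, leaving 16786 genes. The fit had 12 residual degrees of freedom and an estimated biological coefficient of variation of 8.77%. Standard errors were taken as |log2 fold change|/√F. The alternatives were DESeq2 1.42.0, upper-quartile and no scaling, no filter, transcript length offsets, limma 3.58.1 on log2(TPM + 1) and log2(TPM + 0.1), protein-coding transcripts alone, a fit of the 6 libraries compared, a replicate block and leaving out each library. The test was checked on simulated counts in which all genes shared the same spread and few genes changed. That check covers neither kallisto's error in dividing reads nor a change in most genes.

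The text names all 9 genes, up to 4 called genes of each partner list, and the 3 protein-coding genes of at least 5 CPM most correlated with each of the 9. Not every gene under this rule is printed, and CCDC85C was named after its values were seen. The members and lists were chosen with earlier results of these data known. Nothing in the labels says that the lines of a construct were made independently, so p-values measure only the spread between these libraries. Intervals cover that spread, and replicates differed by more than counting noise, with a chi-square per degree of freedom of 4.02 to 11.3. Sequences are from RefSeq on GRCh38.p14, matched by symbol for all 9 genes.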

Additional observations from a re-analysis of the deposited data

How the results depend on the processing

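Each of the 9 genes was recomputed under 17 alternatives per comparison. The alternative that added the unmatched transcripts to CDK7 changed the counts of that gene alone, so it checks little for the others. At 6 h against untreated EWS-FLI1 cells, HEXIM1 (-3.04 to -2.62), CDK9 (1.04 to 1.36), CCNT1 (0.78 to 1.2), CCNK (0.32 to 0.67) and CDK8 (-0.87 to -0.45) passed in all 17, as did HEXIM1 at 24 h (-1.84 to -1.72), all as log2 fold changes. CDK12 at 6 h reversed to -0.23 and -0.24 with limma on log2(TPM + 1) and log2(TPM + 0.1). CDK13 at 6 h reversed to -0.0232 with no scaling factors and to -0.0966 and -0.0992 with the 2 limma settings. LARP7 at 6 h reversed to -0.0371 with no scaling factors and to -0.0473 and -0.0482 with limma. CDK12 between 24 h and 6 h reversed to 0.0174 with no scaling factors, 0.137 with transcript length offsets and 0.37 and 0.38 with limma. CCNT1 between EWS(YS37)-FLI1 and mCherry reversed to -0.0419 and -0.0436 with limma. The cause was not tested.

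The number of the 9 genes that passed moved as follows. At 6 h, against 8, it was 5 with no scaling factors, 7 with upper-quartile scaling and both limma settings, and 9 with no filter and with the unmatched transcripts added to CDK7. At 24 h against untreated cells, against 3, it was 5 with upper-quartile scaling, 4 with the unmatched transcripts added to CDK7, and 2 with DESeq2, length offsets, both limma settings and the replicate block. Between 24 h and 6 h, against 8, it was 6 with no scaling factors and both limma settings, 7 with length offsets and 9 with no filter. Of the 17 alternatives, CDK12 kept a call in 15, CDK13 in 14 and LARP7 in 12 at 6 h, calls of the opposite sign included, CDK12 and CDK13 in 15 and LARP7 in 14 between 24 h and 6 h, and CDK13 in 14 and CDK9 in 5 at 24 h against untreated cells, where CDK7 gained a call in 8. Between EWS-FLI1 and mCherry it was 2 with no filter and with protein-coding transcripts alone, and 0 with length offsets and with both limma settings, against 1. Between EWS(YS37)-FLI1 and mCherry it was 1, against 2, with upper-quartile scaling, no scaling factors, length offsets, both limma settings, protein-coding transcripts alone and the 6 libraries alone. Between EWS-FLI1mut and mCherry it was 1 with no filter, against 0. Between EWS-FLI1 and EWS-FLI1mut it was 3 with DESeq2 and 1 with no filter, with protein-coding transcripts alone, with the 6 libraries alone and with the replicate block, against 0. None of these genes is called in the text for that comparison. Between EWS-FLI1 and EWS(YS37)-FLI1 it was 1 with both limma settings and 3 with no filter and with the replicate block, against 2. Leaving out each library gave 8 to 8 at 6 h and between 24 h and 6 h, 2 to 3 at 24 h against untreated cells, 0 to 1 for EWS-FLI1, 0 to 0 for EWS-FLI1mut and 1 to 2 for EWS(YS37)-FLI1 against mCherry, 0 to 2 between EWS-FLI1 and EWS-FLI1mut and 1 to 2 between EWS-FLI1 and EWS(YS37)-FLI1. An equal count need not hold the same genes. Without the untreated EWS-FLI1 library numbered 3, CDK7 passed at 6 h and LARP7 did not.

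Over all genes, the share of calls that were higher was 32.2% with no scaling factors, against 48.7% with TMM, at 6 h, and 70.4%, against 51.8%, between 24 h and 6 h. For EWS-FLI1mut and for EWS(YS37)-FLI1 against mCherry it was 64.1% and 42.8% with no scaling factors, against 49.3% and 53.1%, and between EWS-FLI1 and EWS-FLI1mut 39.3%, against 53.9%. With length offsets 1701, 360 and 1961 genes were called for EWS-FLI1, EWS-FLI1mut and EWS(YS37)-FLI1 against mCherry, against 3536, 1200 and 3645.

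Replicate numbers did not pair the libraries, apart from EWS-FLI1mut against mCherry. Over all comparisons same-numbered deviations correlated from -0.128 to 0.177. For EWS-FLI1mut against mCherry all 6 libraries correlated best with their own number, and the same-numbered correlations were 0.128, 0.078 and 0.132. In the other comparisons 0 to 3 of 6 libraries correlated best with their own number. The replicate block moved the number of the 9 genes that passed to 1 between EWS-FLI1 and EWS-FLI1mut, against 0, to 3 between EWS-FLI1 and EWS(YS37)-FLI1, against 2, and to 2 at 24 h against untreated cells, against 3.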
